A study of Mus musculus with 18 samples.

Results

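The tubulin genes of the heart were followed through pressure overload in wild-type mice and in mice labelled as Kcp knockout. The 10 genes comprised 5 alpha-tubulins (Tuba1a, Tuba1b, Tuba1c, Tuba4a and Tuba8) and 5 beta-tubulins (Tubb2a, Tubb2b, Tubb4b, Tubb5 and Tubb6). They were chosen by name, and all 10 were found among the 34714 genes of the table. RNA had been sequenced from hearts of C57 mice in 4 groups: Kcp knockout after transverse aortic constriction (KO TAC, 5 libraries), Kcp knockout after sham surgery (KO sham, 4 libraries), wild type after the same constriction (WT TAC, 5 libraries) and wild type after sham surgery (WT sham, 4 libraries). Transverse aortic constriction (TAC) narrows the aorta, so that the left ventricle pumps against a raised pressure. The Kcp product, kielin/chordin-like protein, is secreted and modulates BMP and TGF-beta signals. The design addresses how a Kcp knockout heart remodels under load. The labels state neither age, sex, time after surgery nor the kind of knockout allele. They also do not state whether libraries of a group came from different mice, and the p-values therefore reflect the spread among these samples, which may be technical. The library name of KO sham replicate 2 joins the names of KO sham replicates 3 and 4. That library was therefore left out of means and tests, which used 17 libraries, and its value is given apart. KO TAC replicate 4 also has a name that joins 2 labels and was kept.

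Microtubules are hollow polymers built from dimers of alpha- and beta-tubulin. Mammals make each subunit from several genes, and the resulting isotypes differ mainly in their C-terminal tails, which carry most of the chemical marks that enzymes add to microtubules. In heart muscle cells the microtubule network positions organelles, guides transport along the cell and, where the last tyrosine of alpha-tubulin has been removed, is tied to desmin filaments and resists contraction. A denser microtubule network is a known feature of the hypertrophied heart. Cells also adjust tubulin RNA to the amount of free tubulin dimer through TTC5, which recognises nascent tubulin chains and starts decay of their RNA.

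Values are in FPKM (fragments scaled by transcript length and library total), which scale by gene length. Levels of different tubulin genes can thus be set side by side, except where reads fit several genes. Summed over all genes the libraries held between 390453 and 432264 FPKM, and their depth in reads is unknown. The targeted gene Kcp had 0.494 to 0.952 FPKM in KO TAC and 0.655 to 0.673 FPKM in KO sham, against 0.985 to 1.48 FPKM in WT TAC and 0.794 to 1.43 FPKM in WT sham. Kcp RNA was thus lower than in WT under each surgery without overlap, but not absent, and pooled over surgeries the genotypes overlapped. Kcp did not pass the test between genotypes in TAC or in sham hearts (limma, Benjamini-Hochberg adjusted p = 0.0843 and 0.301). It reached 1 FPKM, the level needed to enter the test, in WT libraries alone, so these p-values give no support. The 8 cardiomyocyte markers used to check the labelled tissue were present in every library, and summed to 22627 to 24924 FPKM in KO TAC and 31662 to 35615 FPKM in KO sham, and to 23734 to 28044 FPKM in WT TAC and 31106 to 32816 FPKM in WT sham. WT TAC replicate 5 shared with the knockout libraries a low level of Ndufb4c (7.02 FPKM, against 35.9 to 49.4 FPKM in the other 8 WT libraries), a gene that splits the series into 2 sets of libraries nearly along genotype. Both TAC comparisons can be made within a set once that library is left out, whereas genotype and library set cannot be told apart in sham hearts.

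Promoters of 4 tubulin genes are shown because they belong to genes with different behaviour under load: Tubb2a and Tuba1a rose after TAC in both genotypes, Tuba4a fell in KO, and Tubb4b did not pass the test in either. Each line gives the 250 bases before the RefSeq start in the mouse build GRCm38.p6, read 5′ to 3′ on the strand of the gene. Capitals mark CCAAT boxes (CCAAT, or ATTGG on the opposite strand) and TATA boxes (TATAAA).
Tubb2a (chr13:34078009-34078258, minus strand): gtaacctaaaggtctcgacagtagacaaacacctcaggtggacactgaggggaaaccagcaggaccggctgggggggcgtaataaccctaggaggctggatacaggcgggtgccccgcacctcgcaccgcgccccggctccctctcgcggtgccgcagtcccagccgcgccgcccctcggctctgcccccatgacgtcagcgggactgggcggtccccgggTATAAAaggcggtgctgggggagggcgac
Tuba1a (chr15:98953502-98953751, minus strand): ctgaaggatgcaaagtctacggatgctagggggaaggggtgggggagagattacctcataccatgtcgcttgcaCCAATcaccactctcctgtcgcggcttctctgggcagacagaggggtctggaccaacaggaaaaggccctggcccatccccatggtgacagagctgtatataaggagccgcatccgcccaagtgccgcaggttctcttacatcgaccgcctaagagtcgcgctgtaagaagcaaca
Tuba4a (chr1:75219295-75219544, minus strand): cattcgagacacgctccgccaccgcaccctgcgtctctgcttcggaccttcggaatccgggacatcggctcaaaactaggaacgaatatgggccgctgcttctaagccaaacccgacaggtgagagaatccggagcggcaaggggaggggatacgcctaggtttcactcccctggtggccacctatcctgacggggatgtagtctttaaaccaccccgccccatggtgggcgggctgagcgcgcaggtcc
Tubb4b (chr2:25224703-25224952, minus strand): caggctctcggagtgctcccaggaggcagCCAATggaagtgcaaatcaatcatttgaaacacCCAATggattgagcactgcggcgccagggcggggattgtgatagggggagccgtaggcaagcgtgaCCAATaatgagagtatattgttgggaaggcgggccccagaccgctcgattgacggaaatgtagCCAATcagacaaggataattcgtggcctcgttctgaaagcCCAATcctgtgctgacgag
Windows of 8 of the 10 tubulin genes were searched, all but those of Tubb2b and Tubb6. Whether a RefSeq start could be matched by symbol for Tubb2b or Tubb6 is not shown. A CCAAT box stood in 4 of these 8 windows (Tuba1a, Tuba1c, Tubb4b and Tubb5), against 33.8% of all 32851 promoter windows of the same length. Tubb4b carried 5 copies, at 221, 188, 122, 59 and 19 bases before the start. A TATA box in the exact letters TATAAA stood in 1 of the 8, Tubb2a, at 29 bases before its start, against 12.4% of all windows. Variants of these letters were not counted. The GC box (GGGCGG) was in 5 of the 8 and in 32.7% of all windows, and the core of the cyclic AMP response element (TGACG) in 4 of the 8 and in 17.8% of all windows. In Tubb2a the TGACG at 59 bases before the start overlapped its reverse complement at 56. No window of the 8 held the heat shock element (3 alternating GAA and TTC units, each spaced by 2 free bases), which 0.466% of all windows held. Both strands were searched for each motif. The GC box was present in the windows of all 4 genes printed above. The Tuba4a window lies inside the annotated span of its gene, upstream of the start that the RefSeq table uses.

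In sham hearts 1 alpha-tubulin, Tuba4a, stood above all others. Tuba4a, an alpha-tubulin of muscle and platelets whose gene does not encode the C-terminal tyrosine, was the highest of the 10 genes at 356 ± 50.9 FPKM in KO sham (SD, n = 3) and 332 ± 41.8 FPKM in WT sham (SD, n = 4). The next level in WT sham was held by Tuba8, an alpha-tubulin of heart, skeletal muscle and testis, at 131 ± 17.1 FPKM, and by Tubb4b, a widely made beta-tubulin, at 126 ± 10.2 FPKM. The libraries of Tuba8 and Tubb4b overlapped, so their order is not resolved. Below them in WT sham came Tuba1b, Tuba1a, Tuba1c, Tubb5, Tubb2a, Tubb6 and Tubb2b, where Tuba1b reached the lowest Tuba8 library, Tuba1c overlapped Tubb5 and Tubb2a overlapped Tubb6. Tubb2b was the lowest at 3.40 ± 0.560 FPKM in KO sham and 4.79 ± 0.686 FPKM in WT sham. After TAC the order stayed the same at both ends, with Tuba4a above every other isotype and Tubb2b below every other isotype in all 4 groups. How reads that fit several genes were counted is not stated. Of the 100-base windows of Tuba1a, Tuba1b and Tuba1c, 65.1%, 69.5% and 53.4% occur in another gene, against none of Tuba4a. The size of its lead over these genes is therefore uncertain.

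**Figure D1:**
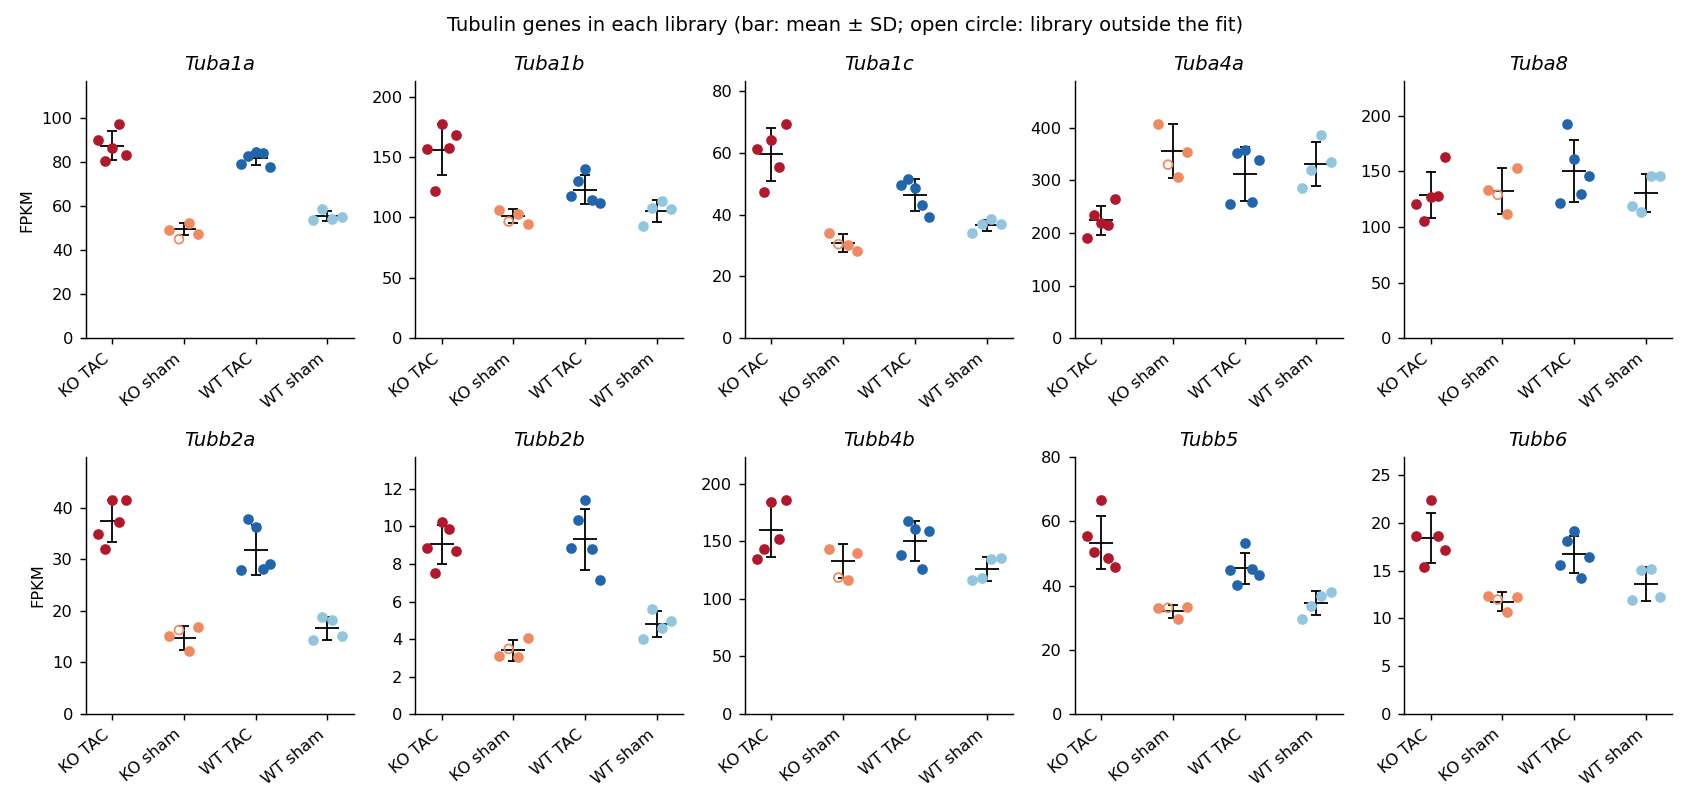
FPKM of the 10 tubulin genes (vertical axes from 0) in every library of KO TAC, KO sham, WT TAC and WT sham, with the mean and SD of each group. Tubb2a and Tuba1a sit above sham in every TAC library of both genotypes, and Tuba4a sits below KO sham in every KO TAC library.

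Pressure overload in KO hearts raised 7 of the 10 tubulin genes and lowered 1. Across all 11937 genes tested, 38.8% passed in either direction, 21.1% of them upward and 17.7% downward as shares of the tested genes (limma, Benjamini-Hochberg, threshold 0.05). The median log2 change of the 10 genes was 0.66, against 0.01 over all genes tested. All 10 genes stood above the filter in every one of the 17 libraries, so that none entered the test through its high group alone. In 8 of the 10 the KO TAC and KO sham libraries did not overlap, where 35.8% of all genes tested were apart in either direction. Each log2 change is a difference of log2(FPKM + 1) between TAC and sham, given with its standard error.

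The largest rises were in the paired class II beta-tubulins. Tubb2a had 34.9, 32.0, 41.4, 37.3 and 41.6 FPKM in KO TAC, against 15.2, 12.2 and 16.9 FPKM in KO sham and 16.3 FPKM in KO sham replicate 2. Every KO TAC library was above every KO sham library, and the log2 change was 1.29 ± 0.13 (limma, Benjamini-Hochberg adjusted p = 7.69e-07). Tubb2b had 8.87, 7.54, 10.2, 9.88 and 8.71 FPKM in KO TAC, against 3.12, 3.05 and 4.05 FPKM in KO sham and 3.48 FPKM in KO sham replicate 2. Again the groups did not overlap, with a log2 change of 1.19 ± 0.13 (limma, Benjamini-Hochberg adjusted p = 1.68e-06). Tubb2a and Tubb2b are neighbours on chromosome 13 (34074278 to 34078008 and 34127008 to 34130354, GRCm38). Their transcripts share sequence: 35.9% of the 100-base windows of the longest GENCODE M21 coding transcript of Tubb2a also occur in Tubb2b, and 26.1% of those of Tubb2b occur in Tubb2a, so how reads were split between them is uncertain. Their sum, which depends less on that split, was 39.5 to 51.6 FPKM in KO TAC and 15.2 to 20.9 FPKM in KO sham.

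Among the alpha-tubulins the 3 genes of the Tuba1 cluster rose in KO. Tuba1a, an alpha-tubulin best known from developing neurons, had 90.3, 80.3, 86.3, 97.3 and 83.0 FPKM in KO TAC, against 49.1, 52.5 and 47.5 FPKM in KO sham and 45.0 FPKM in KO sham replicate 2. The lowest KO TAC library stood well above the highest KO sham library, and the log2 change was 0.80 ± 0.06 (limma, Benjamini-Hochberg adjusted p = 1.05e-07). Tuba1c, an alpha-tubulin made in most tissues, had 61.3, 47.2, 64.2, 55.3 and 69.2 FPKM in KO TAC, against 33.9, 30.1 and 28.3 FPKM in KO sham and 30.4 FPKM in KO sham replicate 2. KO TAC replicate 2 was the lowest of its group and still above all KO sham libraries, with a log2 change of 0.92 ± 0.11 (limma, Benjamini-Hochberg adjusted p = 3.63e-06). Tuba1b, the general alpha-tubulin of most cells, had 157, 122, 177, 157 and 168 FPKM in KO TAC, against 106, 103 and 94.8 FPKM in KO sham and 96.6 FPKM in KO sham replicate 2. Here too replicate 2 was the lowest KO TAC library, and the log2 change was 0.61 ± 0.10 (limma, Benjamini-Hochberg adjusted p = 0.000144). The 3 genes lie within 98931429 to 99038105 of chromosome 15 and share much sequence. Of the 100-base windows of Tuba1a, Tuba1b and Tuba1c, 38.4%, 52.3% and 53.4% occur in another of the 10 genes, and 65.1%, 69.5% and 53.4% in a transcript of any other gene, pseudogenes included, so their separate values are uncertain. The summed level of the 3 was 249 to 328 FPKM in KO TAC and 171 to 189 FPKM in KO sham.

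Tuba4a went the other way in KO. It had 191, 233, 218, 215 and 265 FPKM in KO TAC, against 407, 305 and 355 FPKM in KO sham and 329.8 FPKM in KO sham replicate 2. Every KO TAC library was below every KO sham library, and the log2 change was -0.66 ± 0.13 (limma, Benjamini-Hochberg adjusted p = 0.000917). Tuba4a, on chromosome 1 (75214972 to 75221261, GRCm38), shared none of its 100-base windows with another gene. Tuba8, the other alpha-tubulin of muscle, did not pass and its groups overlapped, at 106 to 163 FPKM in KO TAC and 112 to 153 FPKM in KO sham (log2 change -0.05 ± 0.15; limma, Benjamini-Hochberg adjusted p = 0.836).

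Of the remaining beta-tubulins, 2 rose in KO and 1 did not pass. Tubb5, the class I beta-tubulin of dividing and many resting cells, had 55.4, 50.5, 66.8, 48.5 and 45.7 FPKM in KO TAC, against 33.0, 29.6 and 33.3 FPKM in KO sham and 33.1 FPKM in KO sham replicate 2. The groups were apart and the log2 change was 0.71 ± 0.11 (limma, Benjamini-Hochberg adjusted p = 5.92e-05). Tubb6, a beta-tubulin raised in regenerating skeletal muscle of mice, ranged over 15.4 to 22.4 FPKM in KO TAC and 10.6 to 12.4 FPKM in KO sham, with a log2 change of 0.60 ± 0.11 (limma, Benjamini-Hochberg adjusted p = 0.000385). Tubb4b, the most abundant beta-tubulin, ranged over 135 to 186 FPKM in KO TAC and 116 to 143 FPKM in KO sham. Its groups overlapped and its log2 change of 0.26 ± 0.11 did not pass (limma, Benjamini-Hochberg adjusted p = 0.0821), although it did without KO TAC replicate 1 (0.32, limma, Benjamini-Hochberg adjusted p = 0.0364) and with all 18 libraries (0.30, limma, Benjamini-Hochberg adjusted p = 0.0262). A pseudogene of Tubb4b holds 27.4% of its 100-base windows.

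In WT hearts TAC raised 5 of the 10 tubulin genes and lowered none. Of all genes tested 21.9% passed, 10.7% upward and 11.2% downward (limma, Benjamini-Hochberg). At an unadjusted p under 0.05 there were 8 of the 10, all higher after TAC, against 34.8% of all genes tested in either direction. The median log2 change of the 10 genes was 0.30, against -0.01 over all genes. The WT TAC and WT sham libraries did not overlap in 5 of the 10, where 21.7% of all genes tested were apart in either direction. Without WT TAC replicate 5, which leaves WT libraries of 1 set only, 5 of the 10 genes passed, all higher.

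Tubb2a again had the largest change in log2(FPKM + 1). Its values were 27.9, 37.9, 36.2, 28.2 and 29.2 FPKM in WT TAC, against 14.3, 18.8, 18.3 and 15.2 FPKM in WT sham. Every TAC library exceeded every sham library, and the log2 change was 0.89 ± 0.12 (limma, Benjamini-Hochberg adjusted p = 6.01e-05). Tubb2b had 8.84, 10.3, 11.4, 8.81 and 7.14 FPKM in WT TAC, against 3.99, 5.63, 4.59 and 4.96 FPKM in WT sham. WT TAC replicate 5 was the lowest of its group and still above sham, with a log2 change of 0.83 ± 0.12 (limma, Benjamini-Hochberg adjusted p = 0.000115). The sum of the pair was 36.3 to 48.2 FPKM in WT TAC and 18.3 to 24.4 FPKM in WT sham. Adding 1 FPKM before taking logs shrinks the change of the low gene Tubb2b more than that of Tubb2a. As ratios of mean FPKM, TAC to sham, Tubb2b had 1.94 and Tubb2a 1.91 in WT, and 2.66 and 2.54 in KO. Which of the 2 genes changed more is therefore not resolved.

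Tuba1a was the alpha-tubulin with the largest change in WT. It had 79.1, 82.8, 84.4, 84.3 and 78.0 FPKM in WT TAC, against 53.9, 58.8, 54.1 and 55.0 FPKM in WT sham. The 5 TAC libraries lay close together and above all sham libraries, and the log2 change was 0.55 ± 0.06 (limma, Benjamini-Hochberg adjusted p = 1.02e-05). Tuba1c had 49.4, 51.5, 48.7, 42.9 and 39.3 FPKM in WT TAC, against 34.0, 36.9, 38.4 and 36.9 FPKM in WT sham. WT TAC replicate 5 came within 1 FPKM of the highest sham library, and the log2 change was 0.33 ± 0.10 (limma, Benjamini-Hochberg adjusted p = 0.0216). The call of Tuba1c in WT was lost without WT sham replicate 1, WT TAC replicate 2 or WT TAC replicate 3 (limma, Benjamini-Hochberg adjusted p = 0.0681, 0.0557 and 0.0512). Tubb5 had 45.0, 40.2, 53.2, 45.1 and 43.4 FPKM in WT TAC, against 29.8, 33.8, 36.9 and 37.9 FPKM in WT sham. Its groups were apart and it rose by 0.38 ± 0.10 on the log2 scale (limma, Benjamini-Hochberg adjusted p = 0.0107).

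The other 5 genes did not pass in WT. Tuba1b had 112 to 139.9 FPKM in WT TAC and 92.6 to 114 FPKM in WT sham (log2 change 0.22 ± 0.09; limma, Benjamini-Hochberg adjusted p = 0.101). For Tubb6 the ranges were 14.3 to 19.1 FPKM in WT TAC and 11.9 to 15.2 FPKM in WT sham (log2 change 0.28 ± 0.10; limma, Benjamini-Hochberg adjusted p = 0.0591). Both genes overlapped between groups, with values near the threshold in some settings: Tuba1b passed without KO TAC replicate 2 (limma, Benjamini-Hochberg adjusted p = 0.0351), and Tubb6 passed with all 18 libraries (limma, Benjamini-Hochberg adjusted p = 0.0498) and without WT sham replicate 3, WT TAC replicate 4, KO TAC replicate 2 or KO TAC replicate 3 (limma, Benjamini-Hochberg adjusted p = 0.0488, 0.0350, 0.0442 and 0.0405). Tubb4b had 126 to 168 FPKM in WT TAC and 116 to 136 FPKM in WT sham (log2 change 0.25 ± 0.11), and it passed without WT TAC replicate 4 (limma, Benjamini-Hochberg adjusted p = 0.0465). Tuba4a had 255, 352, 357, 258 and 339.6 FPKM in WT TAC, against 286, 319, 386 and 336 FPKM in WT sham. These groups overlapped, with WT TAC replicates 1 and 4 below the lowest sham library, and the log2 change was -0.09 ± 0.12 (limma, Benjamini-Hochberg adjusted p = 0.631). Tuba8 ranged over 122 to 193 FPKM in WT TAC and 114 to 146 FPKM in WT sham.

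**Figure D2:**
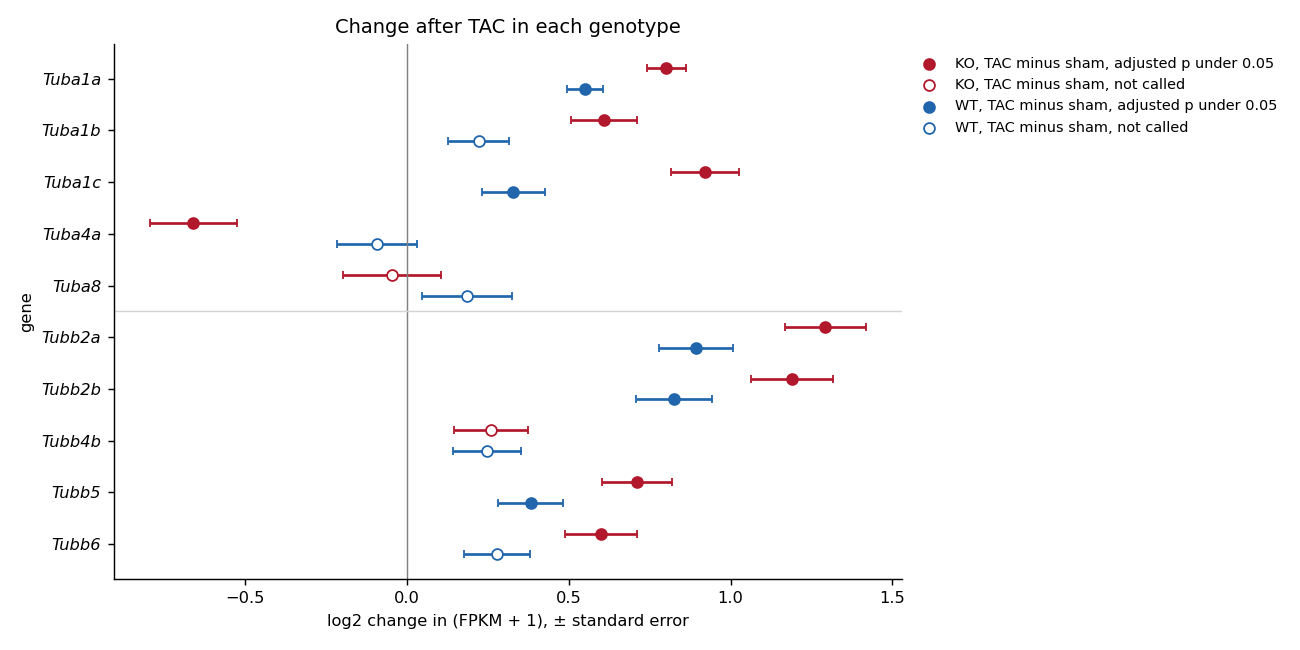
Log2 change in FPKM + 1 after TAC (horizontal axis, with standard error) of each tubulin gene in KO and in WT, filled where the adjusted p was under 0.05. Changes in KO lie to the right of those in WT for 8 of the 10 genes, and Tuba4a lies at -0.66 in KO and -0.09 in WT.

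The composition of the tubulin pool moved with these genes. Summed over the 5 alpha-tubulins, the level was 656 ± 60.6 FPKM in KO TAC and 670.4 ± 63.5 FPKM in KO sham, and 714 ± 86.9 FPKM in WT TAC and 659.9 ± 65.0 FPKM in WT sham (SD, n = 5, 3, 5 and 4). These ranges overlapped within each genotype. The 5 beta-tubulins summed to 278 ± 32.6 FPKM in KO TAC and 195 ± 20.1 FPKM in KO sham, and to 253 ± 24.8 FPKM in WT TAC and 196 ± 15.0 FPKM in WT sham, with no overlap between TAC and sham in either genotype. The ratio of summed alpha to summed beta RNA, which does not depend on how a library is scaled, was 2.37 ± 0.172 in KO TAC and 3.45 ± 0.136 in KO sham, and 2.81 ± 0.108 in WT TAC and 3.37 ± 0.107 in WT sham. It was lower in every TAC library than in every sham library of the same genotype, and the KO TAC libraries (2.07 to 2.50) lay below the WT TAC libraries (2.65 to 2.95). Since the genes were chosen with results known, these sums, ratios and shares are descriptions and were given no test. Their levels also depend on how reads that fit several genes were counted, which is not stated.

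Within the alpha pool Tuba4a supplied 34.3 ± 3.46% in KO TAC and 52.9 ± 2.64% in KO sham, and 43.6 ± 2.80% in WT TAC and 50.2 ± 1.53% in WT sham. Its share was lower in every TAC library than in every sham library of its genotype. The share of Tuba8 overlapped between TAC and sham, at 19.5 ± 1.41% in KO TAC and 19.8 ± 2.41% in KO sham, and 20.9 ± 1.66% in WT TAC and 19.8 ± 1.47% in WT sham. The share of Tuba1b was 23.8 ± 2.26% in KO TAC and 15.2 ± 1.68% in KO sham, and 17.3 ± 1.37% in WT TAC and 16.0 ± 0.674% in WT sham. Within the beta pool Tubb4b remained the main isotype, at 57.4 ± 3.17% in KO TAC and 68.2 ± 0.836% in KO sham, and 59.2 ± 2.47% in WT TAC and 64.4 ± 1.99% in WT sham. Tubb2a took 13.5 ± 0.607% in KO TAC and 7.54 ± 0.568% in KO sham, and 12.5 ± 0.938% in WT TAC and 8.51 ± 1.04% in WT sham, with every TAC library above every sham library of its genotype.

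**Figure D3:**
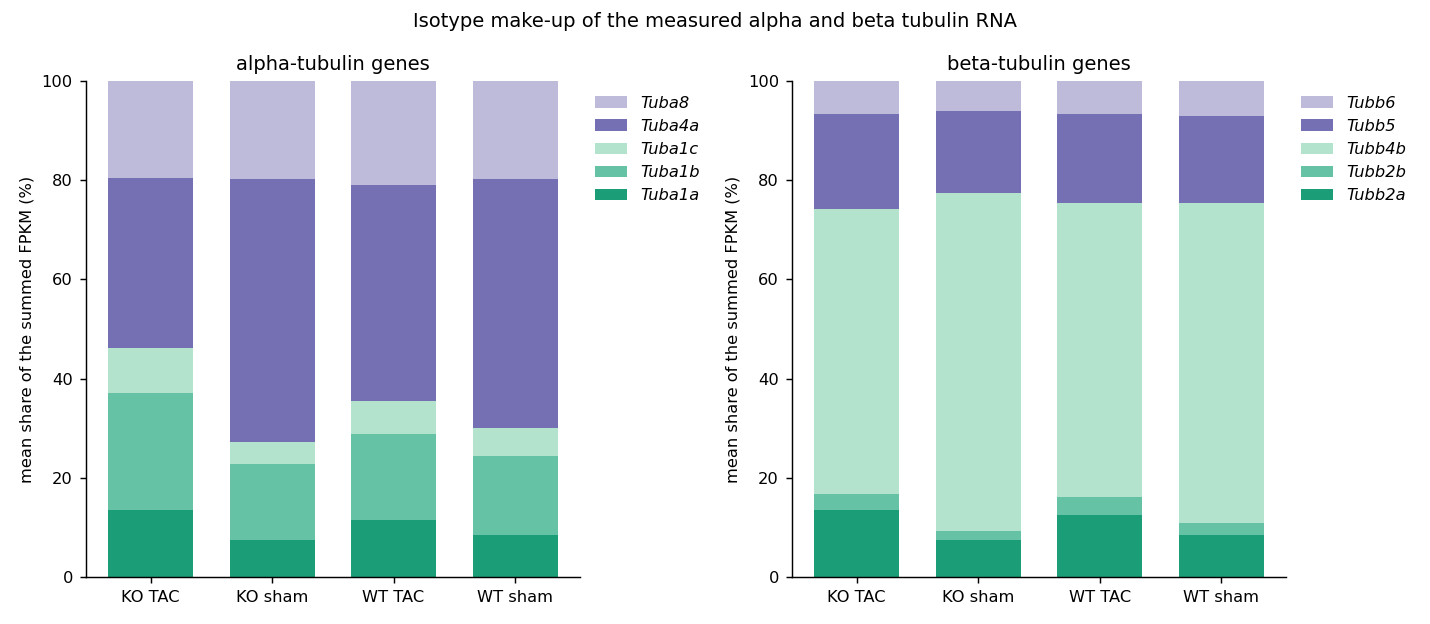
Mean share of each gene in the summed FPKM of the 5 alpha-tubulins (left) and the 5 beta-tubulins (right), in percent, for KO TAC, KO sham, WT TAC and WT sham. The Tuba4a share is 34.3% in KO TAC against 52.9% in KO sham, and the Tubb2a share is 13.5% in KO TAC against 7.54% in KO sham.

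The genotypes were then compared under each surgery. In sham hearts none of the 10 tubulin genes differed between KO and WT past the threshold, where 1.26% of all genes tested did (limma, Benjamini-Hochberg). An unadjusted p under 0.05 was found for 3 of the 10, all lower in KO, against 14.2% of all genes tested in either direction. Tuba1a had 47.5 to 52.5 FPKM in KO sham and 53.9 to 58.8 FPKM in WT sham, without overlap (log2 difference -0.16 ± 0.06; limma, Benjamini-Hochberg adjusted p = 0.266). Tuba1c had 28.3 to 33.9 FPKM in KO sham and 34.0 to 38.4 FPKM in WT sham, also without overlap (log2 difference -0.24 ± 0.11; limma, Benjamini-Hochberg adjusted p = 0.33). These were the 2 of 10 genes whose libraries were apart, where 15.4% of all genes tested were. Tubb2b had the smallest p, at 3.05 to 4.05 FPKM in KO sham and 3.99 to 5.63 FPKM in WT sham (log2 difference -0.39 ± 0.13; limma, Benjamini-Hochberg adjusted p = 0.166).

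After TAC, Tuba1b and Tuba1c were higher and Tuba4a was lower in KO than in WT. Thus 3 of the 10 genes passed, where 11.3% of all genes tested did (6.53% higher and 4.78% lower), and the libraries of KO TAC and WT TAC overlapped in each of the 10, where 6.69% of all genes tested were apart. Tuba1b averaged 156 ± 21.1 FPKM in KO TAC and 123 ± 11.7 FPKM in WT TAC (SD, n = 5 each), a log2 difference of 0.34 ± 0.09 (limma, Benjamini-Hochberg adjusted p = 0.0222). Tuba1c averaged 59.4 ± 8.51 FPKM in KO TAC and 46.3 ± 5.07 FPKM in WT TAC, a log2 difference of 0.35 ± 0.09 (limma, Benjamini-Hochberg adjusted p = 0.0222). Tuba4a averaged 225 ± 27.3 FPKM in KO TAC and 312 ± 51.2 FPKM in WT TAC, a log2 difference of -0.47 ± 0.12 (limma, Benjamini-Hochberg adjusted p = 0.0181). The number of genes that passed was 0 without KO TAC replicate 1 or with a term for the library set, and 1 (Tuba4a) without KO TAC replicate 3, WT TAC replicate 4 or WT TAC replicate 5. The library set term rests on WT TAC replicate 5 alone, the only WT library in the set of the knockouts. That 1 library thus stands for WT TAC in this fit. The log2 differences were then larger, at 0.46 for Tuba1b, 0.57 for Tuba1c and -0.60 for Tuba4a. Tubb2a (0.23 ± 0.11) and Tubb5 (0.22 ± 0.09) did not pass (limma, Benjamini-Hochberg adjusted p = 0.184 and 0.135). Tubb2b, with a log2 difference of -0.03 ± 0.11, had 8.87, 7.54, 10.2, 9.88 and 8.71 FPKM in KO TAC and 8.84, 10.3, 11.4, 8.81 and 7.14 FPKM in WT TAC.

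Whether the response to TAC itself differed between genotypes was tested as the interaction of genotype and surgery. None of the 10 genes passed, where 0.93% of all genes tested did (limma, Benjamini-Hochberg). At an unadjusted p under 0.05 there were 8 of the 10, against 18.8% of all genes tested. The interaction value, which is the log2 change in KO minus that in WT, was positive for 8 of the 10. Tuba1c came nearest, at 0.59 ± 0.14 (limma, Benjamini-Hochberg adjusted p = 0.0564), followed by Tuba4a at -0.57 ± 0.18 and Tuba1a at 0.25 ± 0.08 (limma, Benjamini-Hochberg adjusted p = 0.112 and 0.113). Without KO TAC replicate 2, Tuba1c and Tuba1b passed (0.67 and 0.47; limma, Benjamini-Hochberg adjusted p = 0.00607 and 0.0207). With all 18 libraries Tuba1c passed (0.59; limma, Benjamini-Hochberg adjusted p = 0.0297). Tubb4b had the smallest value, 0.01 ± 0.16.

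Cell markers and the tubulin genes moved in the same hearts. In bulk tissue, fewer cells of a type and less RNA per cell cannot be told apart. The counts of markers called stand beside 38.8% of all genes tested in KO, 21.1% higher and 17.7% lower. In WT the share was 21.9%, with 10.7% higher and 11.2% lower. The summed level of the 8 cardiomyocyte markers, given above, did not overlap between TAC and sham in either genotype, and 7 of 8 fell and 1 rose in KO, while 6 fell and 1 rose in WT (limma, Benjamini-Hochberg). Myh6, the adult myosin heavy chain, fell by 0.50 in KO and by 0.19 in WT on the log2 scale. The 8 fibroblast markers summed to 785 to 1157 FPKM in KO TAC and 655 to 745 FPKM in KO sham, and to 739 to 1121 FPKM in WT TAC and 633 to 837 FPKM in WT sham. Of these, 6 rose and 0 fell in KO, and 3 rose and 1 fell in WT, and Pdgfra, a receptor that marks fibroblasts, had log2 changes of 0.47 ± 0.12 in KO and 0.25 ± 0.11 in WT. The 8 macrophage markers summed to 235 to 332 FPKM in KO TAC and 173 to 194 FPKM in KO sham, with 4 risen in KO, and to 189 to 295 FPKM in WT TAC and 156 to 251 FPKM in WT sham, with none called in WT and 0 at an unadjusted p under 0.05 (limma). Adgre1, the macrophage gene for F4/80, had log2 changes of 0.72 ± 0.16 in KO and 0.11 ± 0.15 in WT.

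Cycling cells also make tubulin. The 8 cycling markers summed to 10.5 to 44.8 FPKM in KO TAC and 3.11 to 4.13 FPKM in KO sham, and to 2.47 to 8.37 FPKM in WT TAC and 3.20 to 5.54 FPKM in WT sham. Of these 8, 6 were tested, and 5 of the 6 (Mki67, Top2a, Birc5, Tpx2 and Cdc20) reached the filter of 1 FPKM in TAC libraries alone, so that a count of calls over the list would give no support. Mki67, a marker of dividing cells, had 0.803 to 2.85 FPKM in KO TAC and 0.293 to 0.329 FPKM in KO sham, and 0.235 to 1.01 FPKM in WT TAC and 0.282 to 0.527 FPKM in WT sham. The endothelial list had 1 of 8 called in KO (Pecam1, 0.33 ± 0.08) and the smooth muscle and pericyte list 1 of 8, against 38.8% of all genes tested. Neither had any in WT, against 21.9% of all genes tested. There 2 and 1 had an unadjusted p under 0.05 (limma), against 34.8% of all genes tested. Lymphocyte markers summed to at most 2.24 FPKM in any library of the 4 groups. The part of these cell types in the tubulin changes was not tested.

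The partners of tubulin were taken by function from lists of microtubule genes, and the counts stand beside 38.8% of all genes called after TAC in KO and 21.9% in WT. The cytosolic chaperonin CCT, whose 8 subunits fold tubulin and actin, had 1 subunit higher (Cct8, 0.20 ± 0.07) and 1 lower (Cct7, -0.18 ± 0.07) in KO, and 4 of 8 higher and none lower in WT, Cct8 among them (0.24 ± 0.06). The median log2 change of CCT was 0.04 in KO and 0.16 in WT. Of the 6 prefoldin subunits, which hand nascent chains to the chaperonin, Pfdn1 rose (0.26 ± 0.08) and Pfdn6 fell (-0.59 ± 0.07) in KO, and Pfdn6 fell in WT (-0.25 ± 0.06). None of the 6 folding cofactors, which assemble the dimer, passed in KO (0 at an unadjusted p under 0.05 in limma), and Arl2 fell in WT (-0.18 ± 0.06). Among the 3 listed factors of tubulin RNA decay found in the table, none passed in either genotype, with 1 at an unadjusted p under 0.05 in each (limma). Ttc5 had log2 changes of 0.17 ± 0.08 in KO and -0.14 ± 0.07 in WT.

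Genes of enzymes that modify tubulin changed in both directions. Vash1, a vasohibin that removes the C-terminal tyrosine of alpha-tubulin, rose by 0.48 ± 0.10 in KO and 0.30 ± 0.09 in WT on the log2 scale. Ttl, the ligase that puts the tyrosine back, rose by 0.27 ± 0.06 in KO and 0.19 ± 0.06 in WT. Svbp, the partner of the vasohibins, did not pass (0.05 ± 0.11 in KO and 0.21 ± 0.11 in WT), and Vash2 was below the filter on low values. The glutamylation list held Ttll family genes and enzymes that trim glutamate, and not every member need be a glutamylase. Of its 8 tested genes, 2 rose (Ttll7 and Ttll12) and 2 fell in KO, where 38.8% of all genes were called. In WT 1 rose and 2 fell, where 21.9% were called. Ttll1, a catalytic subunit that adds glutamate chains to tubulin, had the largest fall at -1.64 ± 0.12 in KO and -0.70 ± 0.11 in WT. It was the only tested gene of the microtubule lists that passed the interaction (limma, Benjamini-Hochberg adjusted p = 0.0212). Agtpbp1, a carboxypeptidase that trims the chains, fell by 0.79 in KO and 0.43 in WT, whereas Ttll7, a beta-tubulin glutamylase, rose by 0.84 ± 0.11 in KO and 0.52 ± 0.10 in WT. Of the 3 acetylation enzymes only the deacetylase gene Hdac6 passed, in KO (0.41 ± 0.09).

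Genes of proteins that bind or ride on microtubules were counted next, again beside 38.8% of all genes called in KO and 21.9% in WT. Of 11 tested microtubule-associated genes, Map1a and Map1b reached the filter of 1 FPKM in TAC libraries alone, and among the other 9 genes 4 rose and 4 fell in KO, and 2 rose and 1 fell in WT. Map4, the main such protein of heart muscle, rose by 0.54 ± 0.07 in KO and 0.19 ± 0.06 in WT on the log2 scale. Map1b had 1.34 to 2.43 FPKM in KO TAC and 0.701 to 0.734 FPKM in KO sham, and 1.10 to 1.69 FPKM in WT TAC and 0.747 to 0.951 FPKM in WT sham. Map1lc3a, a light chain family member known from autophagy, fell by 0.43 in KO and 0.23 in WT. Of 13 plus-end and severing genes 7 rose and 2 fell in KO, with Clip1 at 0.57 ± 0.08, and 1 rose in WT, Clip1 (0.27 ± 0.08). Among 9 motor genes 4 rose in KO and 2 in WT, with none lower, where 21.1% and 10.7% of all genes tested rose. Counted in either direction, the shares of the list were near those over all genes. Kif5b, the conventional kinesin heavy chain, rose by 1.04 ± 0.09 in KO and 0.69 ± 0.08 in WT. Of 5 intermediate filament genes, Des, Vim, Nes and Lmna rose in each genotype. That list also held the linker gene Plec, which rose in KO, and the chaperone gene Cryab, which rose in WT. Des, the muscle filament desmin that anchors microtubules at the Z-disc, rose by 0.88 ± 0.12 in KO and 0.54 ± 0.11 in WT.

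**Figure D4:**
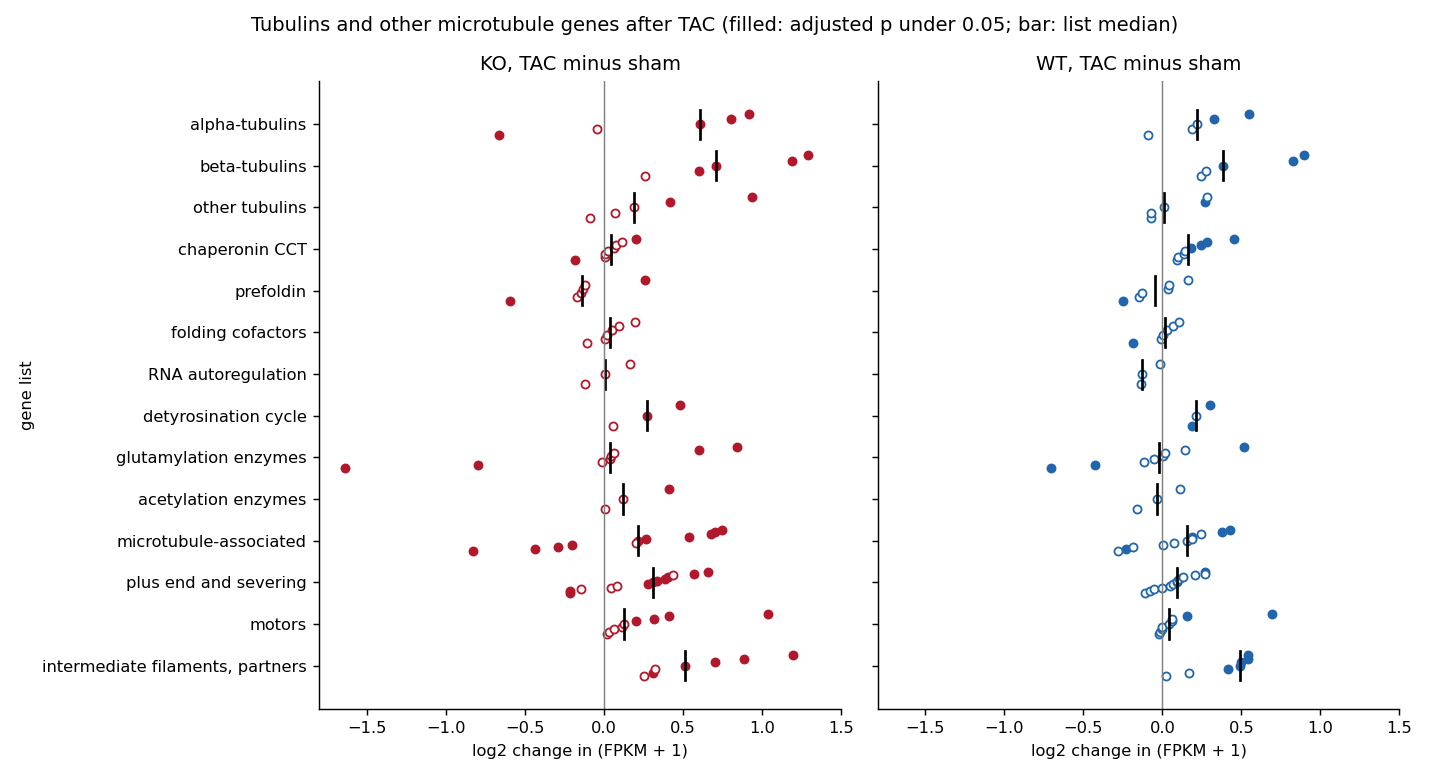
Log2 change in FPKM + 1 after TAC (horizontal axis) of every tested gene in each microtubule list (vertical axis) in KO (left) and WT (right), filled where the adjusted p was under 0.05, with a bar at the list median. The medians of the beta-tubulin list are 0.71 in KO and 0.38 in WT, and those of the chaperonin list 0.04 in KO and 0.16 in WT.

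Of 10 further tubulin genes, 5 passed the filter on low values. Tubb4a, a beta-tubulin mainly of brain, had 1.34 to 2.52 FPKM over the 17 libraries and did not pass in either genotype (0.19 ± 0.11 in KO and 0.01 ± 0.10 in WT). Tubg2, a gamma-tubulin, the kind that starts microtubules at organising centres, rose by 0.42 ± 0.10 in KO and 0.27 ± 0.09 in WT. Tubb3, the beta-tubulin best known from neurons, had 3.47, 1.15, 1.25, 2.74 and 1.69 FPKM in KO TAC, against 0.419, 0.844 and 0.374 FPKM in KO sham. Its KO TAC libraries were all above its KO sham libraries, and the log2 change was 0.94 ± 0.25 (limma, Benjamini-Hochberg adjusted p = 0.00618), against 0.28 ± 0.23 in WT (limma, Benjamini-Hochberg adjusted p = 0.403). Tubb3 reached the filter of 1 FPKM in 7 of the 17 libraries, 5 of KO TAC and 2 of WT TAC and none of sham, so it was tested only because it was high after TAC, and its p gives no support. Tuba3a and Tubal3 were listed at 0 in all 17 libraries, and Tuba3b, Tubb1 and Tube1 stayed at or below 0.293 FPKM.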

How the data were processed

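Heart RNA was made into libraries from 1.3 µg of total RNA with a SMARTer mRNA-Seq kit, per the labels' protocols. The authors deposited 1 table with 34714 genes and 18 libraries. The unit of the deposited values, FPKM, was inferred from the values themselves, since no header names it. The build was mm10, per the submitters' processing notes, while aligner, counter and annotation are not stated there or in the labels. Depth is unknown, so no counting interval is given. Reads of near-identical tubulin genes may have been split between them.

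Values were analysed as log2(FPKM + 1) with limma 3.58.1 in R 4.3.3, with trended and robust moderation, over the 4 groups in 1 fit. The test took in 11937 genes, those reaching 1 FPKM in 3 or more of the 17 fitted libraries. Adjusted p-values are Benjamini-Hochberg over all of these, per comparison, with a threshold of 0.05. The fit was tested on simulated data. KO sham replicate 2 was left out because its library name joins those of 2 others. Relative to the mean of those 2 libraries, the SD of its log2 differences over genes was 0.153, against 0.182 for KO sham replicate 1. Between single libraries, replicate 2 had 0.197 and 0.209 against replicates 3 and 4, and 0.196 against replicate 1. Replicate 1 had 0.208 and 0.239 against replicates 3 and 4, which had 0.266 between them. The exclusion rests on the name alone, and these values do not decide what the joined name means.

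Groups followed the labels, and every column mapped to 1 sample. The tubulin genes, microtubule lists and cell markers were chosen with earlier results of these data known. Besides the 10 tubulin genes and Kcp, the text names up to 3 genes a list with the smallest p after TAC in KO, a few fixed enzymes and partners, and 1 marker a cell type for 5 cell types. Ndufb4c, Map1a, Nes, Plec, Cryab, Ttll12, the cycling markers other than Mki67 and the tubulin genes at or near 0 were named after their values were seen. The result of 1 marker list is not reported here. Alternatives changed the pseudocount, filter, scaling, moderation, groups fitted, block, library set term and libraries included. RefSeq promoters of GRCm38.p6 and GENCODE M21 transcripts gave sequences and shared windows.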

Additional observations from a re-analysis of the deposited data

How the results depend on the processing

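Of the 10 tubulin genes, the 8 called after TAC in KO kept their call and direction in every alternative run, and Tuba1a, Tubb2a, Tubb2b and Tubb5 did so in WT. The number called ranged from 4 to 7 after TAC in WT, 8 to 9 after TAC in KO, 0 to 0 between sham hearts, 0 to 3 between TAC hearts and 0 to 2 for the interaction as each library was left out. Between TAC hearts the number called was 1 with only the 2 groups compared and 0 with the library set term, against 3 in the reported fit. For the interaction it was 1 with all 18 libraries and 2 without WT TAC replicate 5 and KO TAC replicate 2 together, against 0. In WT, Tuba1c missed the threshold without the filter on low values (limma, Benjamini-Hochberg adjusted p = 0.0503). The library set term is estimated from WT TAC replicate 5 alone against the other WT TAC libraries. With it the log2 difference between sham hearts turned sign for Tuba1b (0.10), Tuba1c (0.0385), Tuba4a (-0.0707), Tubb2b (0.0133) and Tubb4b (-0.0379). Between TAC hearts it turned sign for Tubb2b (0.30) and Tubb4b (-0.0026). No sham library separates set from genotype, so the sham values with this term cannot decide a genotype difference. The interaction of Tubb4b was -0.0169 under median-ratio scaling, and Tuba8 after TAC in KO was 0.0204 without the 2 TAC libraries together. Leaving out 1 library turned the sign of 5 small values, which ranged from -0.0023 to 0.204 for Tuba4a and -0.0901 to 0.135 for Tuba8 between sham hearts, -0.0807 to 0.0715 for the interaction of Tubb4b, -0.163 to 0.0618 for Tuba8 after TAC in KO and -0.111 to 0.0417 for Tubb2b between TAC hearts. The cause of these changes was not tested.

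Over all genes the interaction was the least stable count, at 111 in the reported fit, 300 with all 18 libraries, 345 with the replicate block, 16 without the filter, 199 with median-ratio scaling, 17 with the library set term and 461 without the 2 TAC libraries together, and between 10 and 595 as each library was left out. Between TAC hearts 1350 genes were called, against 822 with only the 2 groups compared, 243 with the library set term and 669 to 1838 as each library was left out, and median-ratio scaling changed the split from 779 higher and 571 lower to 633 higher and 727 lower. Between sham hearts 151 were called, and 51 to 169 as each library was left out. The library set term gives no usable count there, since no sham library separates set from genotype. The interaction split was 45 higher and 66 lower as reported and 53 higher and 146 lower with median-ratio scaling. Replicate numbers did not pair the samples: over 22 same-numbered pairs the correlation of deviations ran from -0.24 to 0.16, and 2 were over 0.1. With the replicate number as a block the tubulin calls numbered 5 after TAC in WT, 8 after TAC in KO, 0 between sham hearts, 3 between TAC hearts and 0 for the interaction. Unknown depth leaves the counting error of low genes such as Tubb2b and Tubb3 unstated.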

Other observations

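Among tested genes with a proper name outside the tubulin family, 8 had a level most like the summed FPKM of the 10 tubulin genes. Likeness was the Pearson correlation of log2 values over 17 libraries, which share the 4 groups. The sum itself overlapped between TAC and sham in each genotype. It was 837 to 1047 FPKM in KO TAC and 775 to 936 FPKM in KO sham, and 852 to 1083 FPKM in WT TAC and 762 to 947 FPKM in WT sham. Srl, which encodes the sarcoplasmic reticulum protein sarcalumenin, had r = 0.82, and r = 0.85 after group means were subtracted. Ppip5k1, an inositol pyrophosphate kinase, had r = 0.80 and 0.78, and Kifc3, a minus-end directed kinesin, r = 0.79 and 0.73. Rab10, a small GTPase of vesicle traffic, and Tfrc, the transferrin receptor, both had r = 0.78, with 0.70 for Rab10 and 0.77 for Tfrc after subtraction. St3gal5, Slc25a5 and Nop16 had r = 0.75, 0.75 and 0.74, and 0.65, 0.73 and 0.72 after subtraction. These genes were picked as the highest after genes with provisional names (such as Gm or Rik) and pseudogenes named -ps were left out. Their r is therefore a description, and whether a gene left out ranked higher is not shown.

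For the 10 tubulin genes in the 3 groups of 4 or 5 fitted libraries, none of 30 tests by Dixon's criterion set a library apart from its group.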
